A study of Mus musculus with 6 samples.

Results

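Microglia read their surroundings through G protein-coupled receptors, and 9 genes for such sensing receptors are described here among the 55401 genes counted: Olfr111, Olfr110, Gpr183, Gpr84, Ptger4, C5ar2, Cmklr1, Fpr1 and Fpr2. They were chosen by name, with earlier results of this genotype comparison known, so their fold changes are given as a description with no p-value. The RNA came from spinal cord cells collected with beads coated against CD11b, a myeloid integrin, from untreated mice aged 7 months. The ATXN2-Q33;TDP-43 mice were heterozygous double mutants with a knock-in of human ATXN2-Q33 and with human TDP-43, both RNA-binding proteins linked to amyotrophic lateral sclerosis. The non-transgenic mice (NTg) were C57BL/6. Each group had 3 libraries, each from a pool of 3 spinal cords, so 9 animals stood behind each genotype. The libraries carry the numbers of their labels, 8, 10 and 12 for ATXN2-Q33;TDP-43 and 7, 9 and 11 for NTg. The labels used here do not name the promoter of the human TDP-43.

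These receptors turn small molecules, lipids and peptides at the cell surface into changes of movement, cytokine release and phagocytosis, mostly through inhibitory or stimulatory G proteins and arrestins. Gpr183 binds oxysterols, Gpr84 medium-chain fatty acids, Ptger4 prostaglandin E, C5ar2 the complement fragment C5a, Cmklr1 chemerin, and Fpr1 and Fpr2 formylated peptides of bacteria and mitochondria. Olfr111 and Olfr110 belong to the olfactory receptors, a very large family best known from the nose, some of whose members are also transcribed in other tissues.

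Library totals ran from 13700483 to 19792021 counts in the ATXN2-Q33;TDP-43 libraries and from 12553570 to 22854628 counts in the NTg libraries, and 16248 genes had enough counts to be tested. All 10 microglial markers looked for were detected, with summed levels of 10887 to 15869 CPM (counts scaled to a total of 1000000) in ATXN2-Q33;TDP-43 libraries and 12132 to 15457 CPM in NTg libraries. The 15 neutrophil markers were also all detected, with sums of 673 to 2536 CPM in ATXN2-Q33;TDP-43 libraries and 768 to 1314 CPM in NTg libraries. Neutrophils carry CD11b too. The file header names the alignments of NTg replicates 7 and 9 as combined, without saying of what. For members whose fold change moved by more than the replicate spread with this as a covariate, that value is given beside the main one. Both combined libraries are NTg, so with this covariate the genotype term sets the ATXN2-Q33;TDP-43 libraries against NTg replicate 11 alone. Such a value cannot tell an effect of the combining from other differences among the NTg libraries. In these pooled samples, fewer cells of a type and less RNA per cell cannot be told apart.

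Olfr111 was the member with the largest difference in level between genotypes relative to its spread, and its groups lay well apart. It had 5.56, 5.50 and 6.65 CPM in replicates 8, 10 and 12 of ATXN2-Q33;TDP-43, against 11.3, 11.6 and 10.2 CPM in replicates 7, 9 and 11 of NTg. Every ATXN2-Q33;TDP-43 library was below every NTg library, and the gap between the groups was wider than the range within either. The means were 5.90 ± 0.646 CPM in ATXN2-Q33;TDP-43 and 11.03 ± 0.723 CPM in NTg (SD, n = 3 each). On the log2 scale the fitted fold change was -0.90 (SE 0.18, 95% interval -1.31 to -0.49), which puts ATXN2-Q33;TDP-43 at 0.536 times the NTg level. These values rest on 75, 81 and 128 counts in the ATXN2-Q33;TDP-43 libraries and on 140, 176 and 225 counts in the NTg libraries. A log2 fold change of -0.8 or lower was fitted for 178 of the 16248 tested genes (1.1%).

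Olfr110 lies next to Olfr111 on the same strand of chromosome 17 and had far fewer counts. It had 0.445, 0.543 and 0.519 CPM in replicates 8, 10 and 12 of ATXN2-Q33;TDP-43, against 0.805, 1.12 and 0.726 CPM in replicates 7, 9 and 11 of NTg. Here too every ATXN2-Q33;TDP-43 library was below every NTg library, but 67 counts in all stood behind the gene. The log2 fold change was -0.81 with an SE of 0.52, and its 95% interval, -1.98 to 0.37, includes 0. With the combined alignments as a covariate it was -0.53, against -0.79 for Olfr111.

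**Figure D1:**
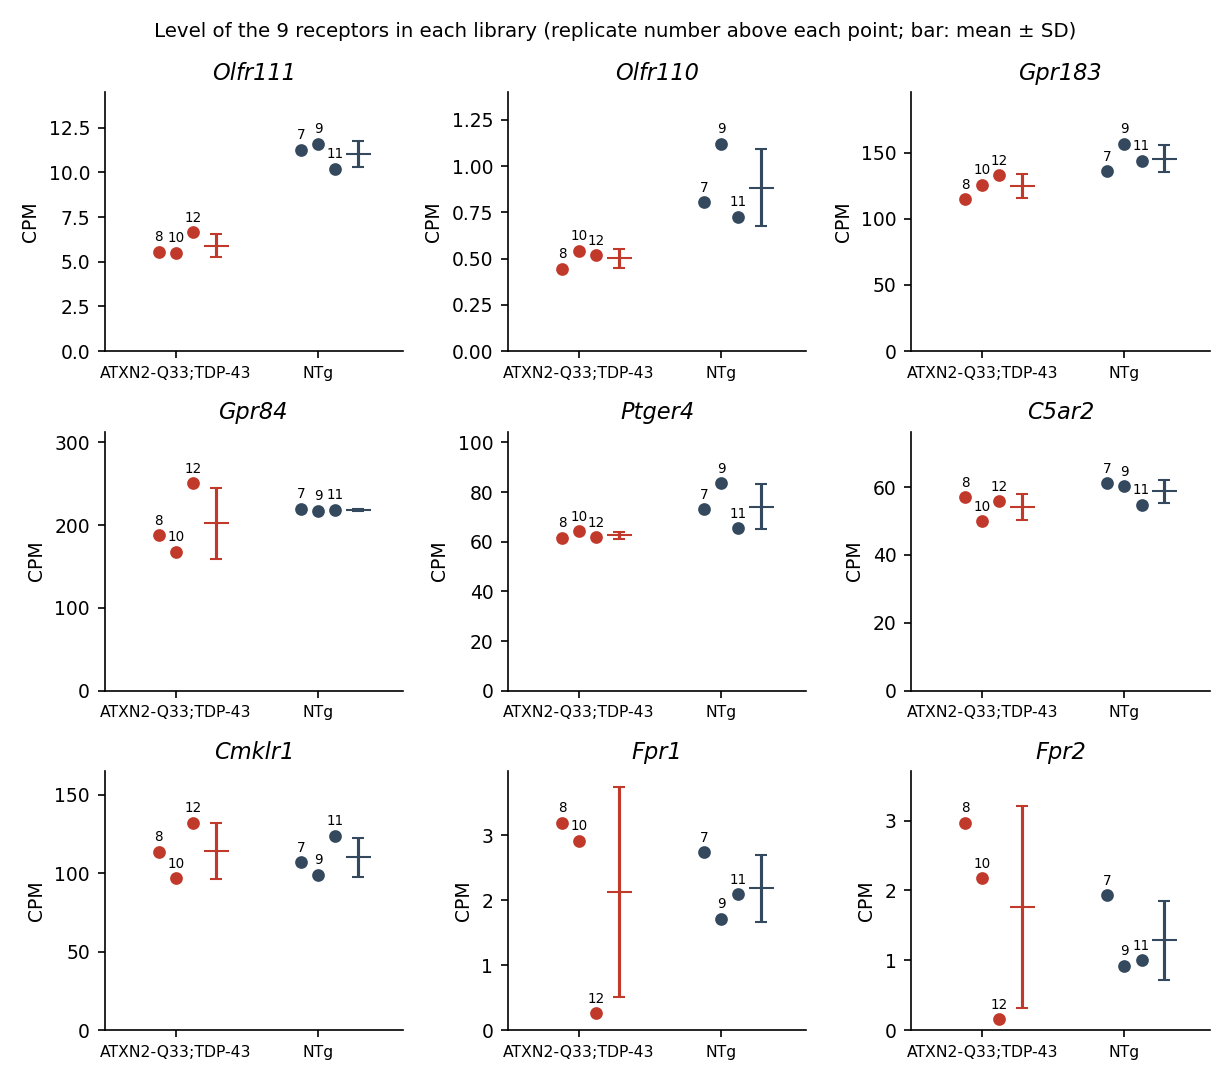
Level of each receptor in CPM (vertical axes, from 0) in the ATXN2-Q33;TDP-43 and NTg libraries, 1 point per library with its replicate number, and mean ± SD (n = 3 each) beside the points. For Olfr111 the ATXN2-Q33;TDP-43 points lie between 5.50 and 6.65 CPM and the NTg points between 10.2 and 11.6 CPM, while for Fpr1 and Fpr2 ATXN2-Q33;TDP-43 replicate 12 sits far below its group.

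How far the counts of this pair can be told apart depends on their sequence. On mm10, Olfr111 (ENSMUSG00000090675) spans positions 37508030 to 37532449 and Olfr110 (ENSMUSG00000090894) positions 37492468 to 37500207, so that Olfr110 starts 15562 bases before Olfr111. In the deposited gene models the last exon of each, 37529925 to 37532449 in Olfr111 and 37498599 to 37500207 in Olfr110, holds the coding sequence. The coding sequences of 954 bases each were identical at 936 positions (98.1%), and the longest identical run was 416 bases. The other olfactory receptor genes of the cluster, Olfr107 to Olfr109 and Olfr112 to Olfr116, matched Olfr111 at 57.0% to 59.8% of aligned bases. The stretches below, from GENCODE transcripts of assembly GRCm38 (mm10), plus strand, show where the coding sequences are identical and where they differ most. How paired reads from them were assigned was not examined. The first coding bases of the genes are letter for letter the same, and in the 120-base window with the most differences the 7 differing bases are in capitals.
Olfr111, chr17:37529979-37530098: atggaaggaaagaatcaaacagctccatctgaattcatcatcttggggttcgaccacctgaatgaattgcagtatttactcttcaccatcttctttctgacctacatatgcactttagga
Olfr110, chr17:37498653-37498772: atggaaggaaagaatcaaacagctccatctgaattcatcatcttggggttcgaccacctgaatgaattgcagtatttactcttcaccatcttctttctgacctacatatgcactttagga
Olfr111, chr17:37530735-37530854: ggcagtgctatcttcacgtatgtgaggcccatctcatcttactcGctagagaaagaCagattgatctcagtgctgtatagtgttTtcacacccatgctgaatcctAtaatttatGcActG
Olfr110, chr17:37499409-37499528: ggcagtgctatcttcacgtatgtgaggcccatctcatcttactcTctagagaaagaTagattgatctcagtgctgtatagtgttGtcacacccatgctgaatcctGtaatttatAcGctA

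**Figure D2:**
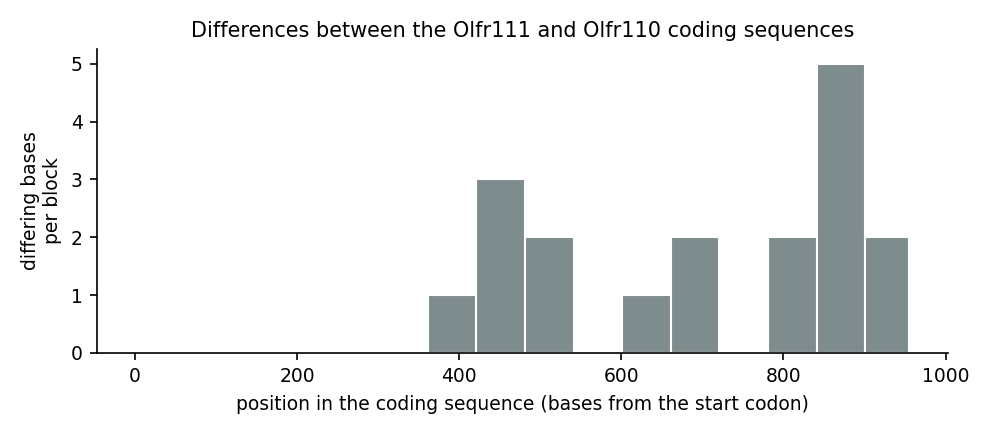
Number of bases that differ between the Olfr111 and Olfr110 coding sequences (vertical axis) in blocks of 60 bases from the start codon (horizontal axis, the last block 54 bases). The first 6 blocks hold no difference, and the block from base 841 to base 900 holds 5.

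Of all windows of 50 bases in the transcripts, 542 of 2594 in Olfr111 (20.9%) and 542 of 1702 in Olfr110 (31.8%) also occurred in the other gene, and in no further gene. Per the options in the file header, reads with several alignments were not counted, so reads from these stretches are missing from either gene where the aligner reported both places. Per base of exon, Olfr111 had 8.28, 6.71 and 8.48 times the level of Olfr110 in ATXN2-Q33;TDP-43 replicates 8, 10 and 12, against 9.28, 6.86 and 9.32 times in replicates 7, 9 and 11 of NTg. The ratio from pooled counts was 7.84 in ATXN2-Q33;TDP-43 and 8.34 in NTg, and the ranges of the groups overlapped. These ratios use full exon lengths, and the shared part is larger in Olfr110 than in Olfr111. Reads left uncounted in shared stretches would therefore raise them, by an amount that was not examined.

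Within the olfactory receptor family, Olfr111 had the highest mean level per length in these libraries. The table lists 1407 genes named Olfr; 1191 had no count in any library and 216 had at least 1. Olfr111 took 13.3% and Olfr110 1.08% of the 6212 counts of the family. Olfr111 averaged 1.90 TPM (the same scale after division by exon length) over the 6 libraries, followed by Olfr784 with 1.30, Olfr90 with 0.911, Olfr986 with 0.701 and Olfr1421-ps1 with 0.521 TPM, the last resting on 15 counts. In the ATXN2-Q33;TDP-43 libraries Olfr111 had 1.09, 1.47 and 1.40 TPM and Olfr784 had 1.04, 1.47 and 1.18 TPM, so that the ranges of these genes overlapped. In the NTg libraries Olfr111 had 2.50, 2.91 and 2.004 TPM and Olfr784 had 1.44, 1.56 and 1.13 TPM, so that there they did not. Olfr110 was number 11 of the family by mean TPM.

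Of the olfactory receptor genes, 16 passed the filter on low counts. Their log2 fold changes ran from -0.90 (Olfr111) to 1.03, with a median of -0.09, and 7 were positive and 9 negative, while the median over all tested genes was 0.01. In CPM the groups did not overlap for 3 of them, Olfr111, Olfr110 and Olfr784, each lower in ATXN2-Q33;TDP-43, where 3.58% of all tested genes were separated in that direction. In TPM the groups of Olfr110 and Olfr784 overlapped. The other coding olfactory receptor genes in the cluster around Olfr111, Olfr107 to Olfr109 and Olfr112 to Olfr116, had 0 counts in all 6 libraries together except Olfr116 with 1.

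**Figure D3:**
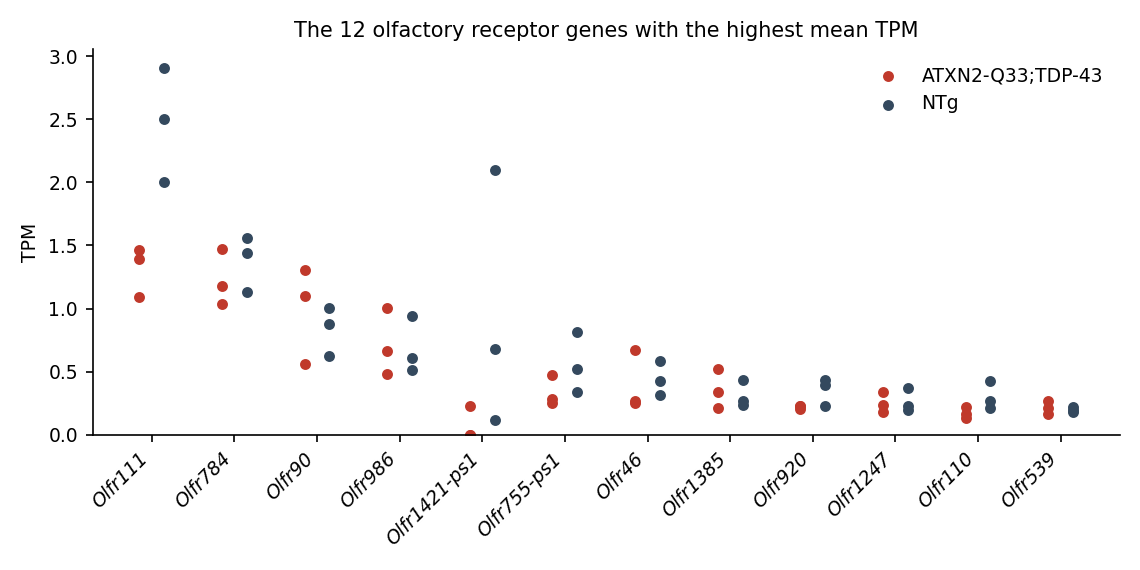
Level in TPM (vertical axis) of the 12 olfactory receptor genes with the highest mean over all libraries, 1 point per library, ATXN2-Q33;TDP-43 left of NTg for each gene. The NTg points of Olfr111 reach 2.004 to 2.91 TPM and its ATXN2-Q33;TDP-43 points 1.09 to 1.47 TPM.

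The machinery that olfactory receptors use in the nose was mostly near the limit of counting. Of 14 listed genes of olfactory transduction and receptor trafficking, 4 passed the filter, and 2, the trafficking factors Rtp1 and Rtp2, had no count. None of the 4 passed the edgeR threshold, 3 had positive and 1 negative fold changes, and their median was 0.06. Gnal, the olfactory G protein subunit, had 4.75, 7.12 and 3.999 CPM in replicates 8, 10 and 12 of ATXN2-Q33;TDP-43, against 2.98, 3.43 and 1.41 CPM in replicates 7, 9 and 11 of NTg. By TPM the groups of Gnal overlapped, with 0.199 in ATXN2-Q33;TDP-43 replicate 12 and 0.203 in NTg replicate 9. By CPM they did not, with a log2 fold change of 1.03 (SE 0.39), or 1.91 with the combined alignments as a covariate. For Adcy3, the olfactory adenylyl cyclase, it was -0.08 (SE 0.22), for the receptor transporter Rtp4 0.01 (SE 0.31) and the G protein chaperone Ric8b 0.11 (SE 0.14).

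The lipid receptors Gpr183 and Ptger4 were lower in ATXN2-Q33;TDP-43 by a much smaller factor than Olfr111. Gpr183 (chromosome 14, positions 121952551 to 121965195, minus strand) had 115, 126 and 133 CPM in replicates 8, 10 and 12 of ATXN2-Q33;TDP-43, against 136, 157 and 144 CPM in replicates 7, 9 and 11 of NTg. Ptger4 (chromosome 15, positions 5206661 to 5244187, minus strand) had 61.6, 64.2 and 61.9 CPM in the same ATXN2-Q33;TDP-43 libraries, against 73.0, 83.5 and 65.5 CPM in the NTg libraries. For both genes every ATXN2-Q33;TDP-43 library was below every NTg library, but the nearest libraries were close, 133 against 136 CPM for Gpr183 and 64.2 against 65.5 CPM for Ptger4. The log2 fold change was -0.22 (SE 0.09, 95% interval -0.44 to -0.01) for Gpr183 and -0.24 (SE 0.10, 95% interval -0.47 to -0.01) for Ptger4. With the combined alignments as a covariate the value of Ptger4 was -0.07. Gpr183 is also transcribed in B cells, whose 7 markers were all detected and summed to 116 to 135 CPM in ATXN2-Q33;TDP-43 libraries and 131 to 150 CPM in NTg libraries; their part in the Gpr183 level was not tested. On the opposite strand, 1097 exon bases of Ptger4 face Ttc33 or the gene model Gm15937.

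Gpr84, the fatty acid receptor, was the most abundant member, and its ATXN2-Q33;TDP-43 libraries differed among themselves. It had 188, 168 and 250 CPM in replicates 8, 10 and 12 of ATXN2-Q33;TDP-43, against 220, 217 and 219 CPM in replicates 7, 9 and 11 of NTg. The SD was 43.0 CPM in ATXN2-Q33;TDP-43 and 1.34 CPM in NTg, and the ATXN2-Q33;TDP-43 libraries lay on both sides of the NTg libraries. The log2 fold change was -0.11 (SE 0.14, 95% interval -0.43 to 0.20), and it was -0.30 without replicate 12 and 0.00 without replicate 10. Gpr84 spans positions 103308235 to 103310612 of chromosome 15 on the minus strand, and 681 bases of its exons lie opposite the gene model Gm49482, which the stranded counting keeps apart.

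The complement receptor C5ar2 and the chemerin receptor Cmklr1 had overlapping groups. C5ar2 had 57.1, 49.9 and 55.8 CPM in replicates 8, 10 and 12 of ATXN2-Q33;TDP-43, against 61.1, 60.3 and 54.8 CPM in replicates 7, 9 and 11 of NTg, and its fitted log2 fold change was -0.11 (SE 0.09, 95% interval -0.32 to 0.10). Cmklr1 had 114, 96.8 and 132 CPM in the ATXN2-Q33;TDP-43 libraries, against 107, 99.2 and 124 CPM in the NTg libraries, and its fitted log2 fold change was 0.05 (SE 0.13, 95% interval -0.24 to 0.35). For both genes the libraries of the genotypes were interleaved. With the combined alignments as a covariate the values were -0.01 for C5ar2 and -0.12 for Cmklr1, which was also negative, at -0.07, without replicate 12. On the same strand, 127 exon bases of C5ar2 overlap the gene model Gm26473. C5ar1, the G protein-coupled receptor for the same C5a ligand, had 3.37 to 3.89 times the TPM of C5ar2 in the 6 libraries and a log2 fold change of -0.03 (SE 0.10).

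Fpr1 and Fpr2, receptors for formylated peptides, had low levels that varied more between libraries of a genotype than between genotypes. Fpr1 had 3.19, 2.92 and 0.260 CPM in replicates 8, 10 and 12 of ATXN2-Q33;TDP-43, against 2.74, 1.71 and 2.09 CPM in replicates 7, 9 and 11 of NTg. Fpr2 had 2.97, 2.17 and 0.156 CPM in the ATXN2-Q33;TDP-43 libraries, against 1.93, 0.922 and 0.999 CPM in the NTg libraries. ATXN2-Q33;TDP-43 replicate 12, with 5 counts of Fpr1 and 3 of Fpr2, was the lowest library for both, and replicate 8 of the same genotype the highest. The log2 fold change was -0.05 (SE 0.73) for Fpr1 and 0.45 (SE 0.84) for Fpr2, and without replicate 12 these became 0.49 and 1.02, and without replicate 8 they became -0.47 and -0.15.

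Neutrophils also transcribe both receptors, and their markers moved with them across libraries. The summed level of the 15 neutrophil markers was 2536, 1767 and 673 CPM in replicates 8, 10 and 12 of ATXN2-Q33;TDP-43, against 1314, 768 and 1009 CPM in replicates 7, 9 and 11 of NTg. Of that sum Csf3r, a receptor gene with an even level, took 658, 598 and 610 CPM in the ATXN2-Q33;TDP-43 libraries, against 614, 584 and 569 CPM in the NTg libraries. Without Csf3r, left out after its values were seen, the other 14 markers summed to 1879, 1168 and 62.9 CPM in the ATXN2-Q33;TDP-43 libraries, against 700.2, 185 and 439 CPM in the NTg libraries. S100a9, a calprotectin subunit abundant in neutrophils, had 562, 312 and 15.7 CPM in the ATXN2-Q33;TDP-43 libraries, against 186, 39.2 and 101 CPM in the NTg libraries. The library lowest for Fpr1 and Fpr2 was the lowest for these markers, and the library highest for both receptors the highest. P2ry12, a microglial purinergic receptor, did not share that order, with 680, 600 and 834 CPM in the ATXN2-Q33;TDP-43 libraries against 715, 670 and 808 CPM in the NTg libraries. The part of neutrophil RNA in the levels of Fpr1 and Fpr2 was not tested.

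**Figure D4:**
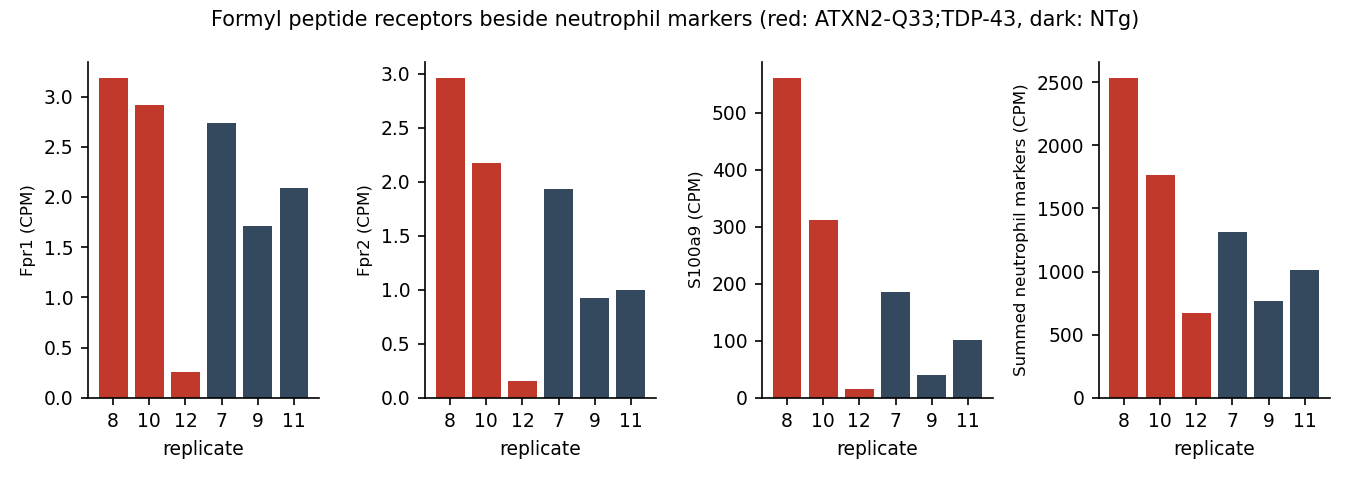
CPM of Fpr1, Fpr2, S100a9 and the summed 15 neutrophil markers (vertical axes, bars from 0) in each library, ATXN2-Q33;TDP-43 replicates 8, 10 and 12 left of NTg replicates 7, 9 and 11. ATXN2-Q33;TDP-43 replicate 8 has the tallest bar and replicate 12 the shortest in every panel, at 2536 and 673 CPM for the summed markers.

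Fpr1 and Fpr2 are neighbours on chromosome 17, at positions 17876471 to 17883940 on the minus strand and 17887824 to 17893952 on the plus strand. Their coding sequences were identical at 69.8% of aligned bases, whereas Fpr2 and Fpr3 matched at 88.2%. Of the 50-base windows of Fpr2, 31.5% also occurred in Fpr1, Fpr3 or the gene model Gm5966, and 48 exon bases of Fpr2 overlap Fpr3 on the same strand, so the level of Fpr2 is uncertain to that extent. Fpr3 had 7 counts in all, and Fpr-rs3, Fpr-rs4, Fpr-rs5, Fpr-rs6 and Fpr-rs7 had 0.

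Side by side, 7 of the 9 members had a negative and 2 a positive fold change, against 48.0% negative among all tested genes, and the members' median log2 fold change was -0.11. By CPM, every ATXN2-Q33;TDP-43 library was below every NTg library in 4 of them, Olfr111, Olfr110, Gpr183 and Ptger4. In none was every one above, and 5 overlapped. Among all tested genes 582 (3.58%) were separated by CPM in the lower and 531 (3.27%) in the higher direction, 6.85% in all. By TPM only Olfr111 of these 4 members stayed separated. For Olfr110, Gpr183 and Ptger4 the TPM of ATXN2-Q33;TDP-43 replicate 10 was above that of NTg replicate 11. All 9 passed the filter on low counts. At a Benjamini-Hochberg adjusted p under 0.05 in edgeR, 0 of the 9 members were called, as were 0.0% of all tested genes. An unadjusted p under 0.05 was found for 368 genes (2.26%; 0.862% lower and 1.4% higher). DESeq2 called 7 genes (0.0431%) and limma voom 0, none of them a member. With neighbouring sample codes (7 with 8, 9 with 10, 11 with 12) as a block, which the labels do not name as pairs, edgeR called 71 genes (0.437%), and Olfr111 was the 1 member among them. Because the members were chosen with this contrast known, nothing is read from their count.

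**Figure D5:**
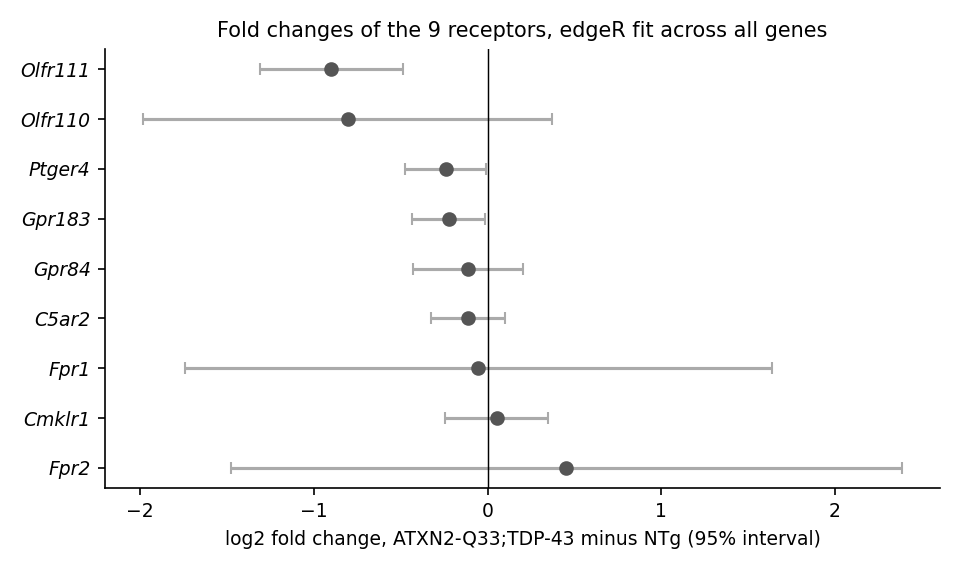
Fitted log2 fold change of each receptor, ATXN2-Q33;TDP-43 minus NTg (horizontal axis), with its 95% interval (bars), from the edgeR fit across all genes with 3 libraries each. Olfr111 lies at -0.90, with an interval that ends at -0.49, and the widest intervals belong to Fpr2, Fpr1 and Olfr110.

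Levels of the members, compared per length, covered more than 2 orders of magnitude. Mean TPM over the 6 libraries was 71.6 for Gpr84, 27.7 for Gpr183, 19.3 for Cmklr1, 9.37 for C5ar2, 6.11 for Ptger4, 1.90 for Olfr111, 0.967 for Fpr1, 0.697 for Fpr2 and 0.237 for Olfr110. The ranges over libraries did not overlap between Gpr84 and Gpr183, between Cmklr1 and C5ar2, or between Ptger4 and Olfr111. They overlapped for the other neighbours in the order, although Gpr183 was above Cmklr1, C5ar2 above Ptger4 and Fpr1 above Fpr2 in all 6 libraries. Olfr111 was above Fpr1 in 4 of 6 libraries and Fpr2 above Olfr110 in 5 of 6, so these neighbours are not separated. The order was the same by median TPM and in the NTg libraries alone.

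Among 112 listed receptors, members included, Gpr84 was number 5 by mean TPM, Gpr183 number 12, Cmklr1 number 13, C5ar2 number 17, Ptger4 number 21, Olfr111 number 34 and Fpr1 number 38. The first 4 were Cx3cr1, the fractalkine receptor, with 235.7 TPM, P2ry12 with 165 TPM, the lysophosphatidylserine receptor Gpr34 with 82.3 TPM and the C3a receptor C3ar1 with 71.6 TPM.

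Genes that make, degrade or are the ligands of these receptors showed no common direction. Of 15 listed, 12 passed the filter. Of these, 5 had positive and 7 negative fold changes, the median log2 fold change was -0.02, and none passed the edgeR threshold. In edgeR 2 of the 12 had an unadjusted p under 0.05, against 2.26% of all tested genes. The list was chosen with earlier results known, so nothing is read from this count. Ch25h, which makes the oxysterol precursor of the Gpr183 ligand, had 4.15, 3.66 and 3.48 CPM in replicates 8, 10 and 12 of ATXN2-Q33;TDP-43, against 6.20, 5.86 and 4.63 CPM in replicates 7, 9 and 11 of NTg. By TPM its groups overlapped, with 1.86 in ATXN2-Q33;TDP-43 replicate 10 and 1.73 in NTg replicate 11. By CPM they did not, with a log2 fold change of -0.56 (SE 0.25), or -0.30 with the combined alignments as a covariate. Hsd3b7, which inactivates that ligand, stood at -0.16 (SE 0.19) on the log2 fold scale. Cyp7b1, which completes its synthesis, had 29 counts in all and was not tested.

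Rarres2, the gene for chemerin, the Cmklr1 ligand, had 4.38, 11.5 and 4.52 CPM in replicates 8, 10 and 12 of ATXN2-Q33;TDP-43, against 1.45, 4.02 and 2.45 CPM in replicates 7, 9 and 11 of NTg. By TPM the groups overlapped, with 0.857 in ATXN2-Q33;TDP-43 replicate 8 and 1.004 in NTg replicate 9. By CPM they did not, with a log2 fold change of 1.36 (SE 0.49), or 0.74 without replicate 10 of ATXN2-Q33;TDP-43. Rarres2 is also 1 of the 9 ependymal markers, all of which were detected, and their sum was 34.6, 151 and 58.2 CPM in the same ATXN2-Q33;TDP-43 libraries, against 21.8, 42.4 and 27.6 CPM in the NTg libraries. The part of ependymal RNA in the Rarres2 level was not tested. Anxa1 and Camp, which encode peptide or protein ligands of Fpr2, stood at 1.30 (SE 1.10) and 0.93 (SE 1.22) on the log2 fold scale. Both were at their lowest in ATXN2-Q33;TDP-43 replicate 12, at 2.91 and 1.61 CPM, and at their highest in replicate 8, at 57.4 and 52.4 CPM. Camp is also 1 of the 15 neutrophil markers, and the part of neutrophil RNA in the levels of Anxa1 and Camp was not tested. Without replicate 8 the log2 fold changes of Anxa1 and Camp were 0.57 and 0.14, and under limma voom 0.44 and -0.15.

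On the side of prostaglandin E, the ligand of Ptger4, the cyclooxygenases Ptgs1 and Ptgs2 stood at log2 fold changes of -0.09 (SE 0.11) and -0.14 (SE 0.24). The prostaglandin E synthases Ptges, Ptges2 and Ptges3 had -0.29 (SE 0.84), 0.10 (SE 0.24) and -0.01 (SE 0.08), and Hpgd, which inactivates prostaglandins, had -0.04 (SE 0.27). Groups overlapped for all 6. With the combined alignments as a covariate Ptgs2, Ptges and Ptges2 stood at -0.52, 1.15 and 0.35, and Ptges ran from -1.16 without replicate 10 to 0.26 without replicate 12 of ATXN2-Q33;TDP-43. The complement gene C3 had 52.1 ± 34.1 CPM in ATXN2-Q33;TDP-43 and 39.4 ± 12.4 CPM in NTg (SD, n = 3 each), or 0.40 (SE 0.68) on the log2 fold scale, which was -0.07 without replicate 8 and 0.85 without replicate 12. Hc, the source of C5a, had 37 counts in all and was not tested, like the prostaglandin transporter Slco2a1 with 7.

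The other receptor lists held no gene past the edgeR threshold. Of 15 other chemoattractant and leukotriene receptors 5 were tested, 1 positive and 4 negative with a median of -0.08. C3ar1, the most abundant of them, had 490, 457 and 537 CPM in replicates 8, 10 and 12 of ATXN2-Q33;TDP-43. In replicates 7, 9 and 11 of NTg it had 559, 552 and 544 CPM. By TPM its groups overlapped, with 74.8 in ATXN2-Q33;TDP-43 replicate 10 and 65.5 in NTg replicate 11. By CPM they did not, with a log2 fold change of -0.16 (SE 0.09). The platelet-activating factor receptor Ptafr stood at 0.01 (SE 0.08) and Ccrl2, which binds chemerin, at -0.11 (SE 0.09) on the same scale. Of 22 chemokine receptors 11 were tested, 6 positive and 5 negative with a median of 0.03, where Cx3cr1 stood at -0.03 (SE 0.14) and Cxcr4 at 0.52 (SE 0.21) on the log2 fold scale. The groups of Cxcr4 overlapped, with 21.4, 21.2 and 13.3 CPM in replicates 8, 10 and 12 of ATXN2-Q33;TDP-43, against 13.2, 11.2 and 14.4 CPM in replicates 7, 9 and 11 of NTg.

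Of 35 other prostanoid and lipid receptors 19 were tested, 8 positive and 11 negative with a median of -0.02. The most abundant by mean CPM were Gpr34, the niacin and ketone body receptor Hcar2 and the sphingosine phosphate receptor S1pr1. They stood at 0.00 (SE 0.20), -0.18 (SE 0.12) and 0.03 (SE 0.16) on the log2 fold scale. Of 12 nucleotide and adenosine receptors 10 were tested, 5 in each direction with a median of -0.01, and P2ry12, P2ry13 and P2ry6 had -0.05 (SE 0.13), -0.05 (SE 0.10) and -0.13 (SE 0.10). Of 19 adhesion and orphan receptors 14 were tested, 11 positive and 3 negative with a median of 0.22. Its 3 most abundant members by mean CPM, Adgrg1, Adgre1 and Gpr157, were the 3 negative ones, at -0.05 (SE 0.12), -0.14 (SE 0.12) and -0.09 (SE 0.12). By mean TPM a receptor of this list with a positive fold change stood above Gpr157. All 50 listed G proteins and their regulators were tested, 31 positive and 19 negative with a median of 0.03; Gnas and Gnai2, the stimulatory and an inhibitory subunit, and the regulator Rgs10 had -0.08 (SE 0.10), 0.00 (SE 0.11) and -0.08 (SE 0.19).

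The genes whose pattern over the 6 libraries was most like that of Olfr111 were found by the root mean square difference of centred log2 CPM (pseudocount 0.5) among 7806 genes with a mean of at least 10 CPM. They were Clec7a, the beta-glucan receptor dectin, at 0.16, Pdcd1, the checkpoint receptor, at 0.19, Plekha4 at 0.23, the adhesion molecule Vcam1 at 0.23 and the plasminogen activator Plau at 0.23, where the spread of Olfr111 itself was 0.44. Clec7a had 101, 102 and 87.7 CPM in replicates 8, 10 and 12 of ATXN2-Q33;TDP-43, against 161, 187 and 168 CPM in replicates 7, 9 and 11 of NTg. Plau had 325, 306 and 314 CPM in the ATXN2-Q33;TDP-43 libraries, against 433, 434 and 404 CPM in the NTg libraries. By CPM all 5 were lower in every ATXN2-Q33;TDP-43 library than in any NTg library, which the choice by likeness to Olfr111 favours. By TPM the groups of Plekha4 and Plau overlapped. At a floor of 1 CPM (12463 genes) 2 of the 5, Clec7a and Pdcd1, stayed among the first 5, at ranks 3 and 5.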

How the data were processed

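The data were counts of paired fragments per gene in 6 libraries of spinal cord microglia; the authors deposited raw counts made with featureCounts 1.6.1, strand setting 2, per the file headers. A fragment overlapping several genes was counted for each. The submitters' processing notes name Trim Galore 0.4.1, FastQC, TopHat2, featureCounts, DESeq2 and the build mm10. Another 6 columns, of other samples, were left aside. Symbols matched 55141 of 55401 identifiers. The header names the alignments of NTg replicates 7 and 9 as combined.

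Genes were filtered with filterByExpr (minimum count 10) and compared in R 4.3.3 by edgeR 4.0.16 (TMM, robust quasi-likelihood, ATXN2-Q33;TDP-43 minus NTg, no covariate, adjusted p under 0.05); the common biological coefficient of variation was 0.261. DESeq2 1.42.0 and limma 3.58.1 were alternatives. CPM used TMM-scaled library sizes and TPM the exon lengths of the table. Of the ligand and olfactory transduction lists all tested genes may be named, and of other lists the 3 with the highest mean CPM, of which 1 is not reported here. No pair of libraries of the same genotype agreed within sampling noise, and replicates are separate pools. The fit was tested on simulated data. The members and lists were chosen with earlier results of these data known.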

Additional observations from a re-analysis of the deposited data

How the results depend on the processing

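edgeR called 0 genes; without a filter it called 6, the DESeq2 Wald test called 7, and leaving out 1 library gave 0 to 2, the 2 without ATXN2-Q33;TDP-43 replicate 12. No paired analysis was possible because the groups share no replicate number and the labels name no pairs, so a block could be formed only from neighbouring codes (7 with 8, 9 with 10, 11 with 12), a hint from the numbers and not a design. That block called 71 genes (0.437%), 1 of them a member, Olfr111, close to the threshold. The block left the log2 fold change of Olfr111 at -0.90 with an SE of 0.19, against 0.18 in the main fit. Over all tested genes, 1401 had an unadjusted p under 0.05 in edgeR with the block, against 368 without it. The deviations of neighbours correlated at 0.246, 0.597 and 0.394. Over 13 alternatives the log2 fold change of Olfr111 ran from -0.99 to -0.79, and over 11 that of Olfr110 from -0.94 to -0.53. Of 115 member values under alternatives, 112 moved by less than the replicate spread. The other 3 were Olfr110, C5ar2 and Ptger4 with the combined alignments as a covariate, at -0.53, -0.01 and -0.07. With that covariate the NTg side of the comparison rests on replicate 11 alone. Fpr1 ran from -0.84 under voom to 0.49 and Fpr2 from -0.40 under voom to 1.02, both highest without replicate 12, and Gpr84 reached 0.00 without replicate 10. Cmklr1 ran from -0.12 to 0.16. The members' median became -0.23 under voom and without replicate 10 or 12, and -0.22 with the block. Depth limits Olfr110, Fpr1 and Fpr2 most, with 67, 197 and 135 counts in all.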
